A study of Saccharomyces cerevisiae with 7 samples.

Results

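The genes described here encode the proteins of the large (60S) subunit of the cytosolic ribosome and of its stalk in budding yeast. They were chosen by name, as every measured gene whose standard name starts with RPL or RPP and a digit, which gave 39 of the 337 genes in the table. The R64 annotation of the yeast genome holds 81 such genes, the RNase P gene RPP1 left aside. The readout was the readthrough index (RTI), which divides the GRO-seq reads in a window 50 to 500 nt past the mRNA 3' end by those in the mirror window ahead of it. GRO-seq labels and sequences RNA that is still being made by engaged polymerases, so a polymerase that fails to stop at the poly(A) site adds reads to the downstream window. The 3 sua7-1 libraries (replicates 2, 3 and 4) carry a point mutation in TFIIB, the general transcription factor that helps recruit RNA polymerase II to promoters. The mutation also shifts transcription start sites and makes the cells cold-sensitive, so these cells differ from WT in more than termination. The 4 WT libraries (replicates 1 to 4) carry the unchanged gene. Both strains have the BY4733 background (MATα his3Δ200 trp1Δ63 leu2Δ0 met15Δ0 ura3Δ0), were grown in YPD at 30 °C to an A600 of 0.8, and were labelled with BrUTP for 5 min at 30 °C. The SUA7 gene itself is not among the 337 genes, so the labels could not be checked on it.

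Each ribosome carries one copy of nearly every large-subunit protein. Most of these proteins are encoded in yeast by a pair of near-identical genes, an A and a B copy left by an ancient genome duplication, and a few by a single gene. The genes are among the most heavily transcribed by RNA polymerase II. Their transcripts end where cleavage factors recognise the poly(A) signal, which in yeast includes an AT-rich efficiency element such as TATATA ahead of the cleavage site. Of the 39 genes, 33 belong to pairs and 6 are single-copy genes (RPL3, RPL5, RPL25, RPL32, RPL39 and RPP0). Both copies were measured for 8 pairs, the A copy alone for 9 and the B copy alone for 8. Of the 5 stalk genes, RPP0 and RPP2B were measured.

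The copies of some pairs are told apart by few bases near the end of the coding sequence. The last 60 coding bases, stop codon included, are shown for 3 pairs whose copies had different RTI values, from the R64 reference, read 5′ to 3′ on the coding strand, with capitals where the copies differ.
RPL12A (chrV:52721-52780, minus strand): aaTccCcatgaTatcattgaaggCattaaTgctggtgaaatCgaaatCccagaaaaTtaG
RPL12B (chrIV:1302054-1302113, plus strand): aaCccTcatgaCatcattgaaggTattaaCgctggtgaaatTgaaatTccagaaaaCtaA
RPL35A (chrIV:118458-118517, plus strand): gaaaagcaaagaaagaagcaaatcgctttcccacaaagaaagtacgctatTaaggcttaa
RPL35B (chrIV:218308-218367, plus strand): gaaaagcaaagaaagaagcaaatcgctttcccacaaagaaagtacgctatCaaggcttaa
RPL40A (chrIX:69469-69528, plus strand): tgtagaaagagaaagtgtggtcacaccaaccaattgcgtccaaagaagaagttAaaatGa
RPL40B (chrXI:617996-618055, minus strand): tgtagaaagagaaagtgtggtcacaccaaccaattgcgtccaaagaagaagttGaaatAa
These stretches differ at 9 positions in RPL12, 1 in RPL35 and 2 in RPL40. Over the whole coding sequence the copies were 91.6%, 99.2% and 93.8% identical. The upstream window of the RTI is set from the mRNA 3' end, so the stretch counted next is not the same as that window. In the 450 nt of genome that end at the stop codon, 65.8% of the 36 nt words of RPL35A also occur elsewhere in the genome. The share was 18.1% in RPL12A and 22.9% in RPL40A. Of the 39 genes, 27 have at least 1 such repeated word and 4 have more than 50% of their words repeated: RPL11A (76.6%), RPL35A and RPL35B (65.8% each) and RPL4A (63.9%). In the 450 nt after the stop codon none of the 39 genes has a repeated word. The sources used here do not say how reads that match 2 copies were treated, and the part of such reads in an RTI was not tested.

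In WT cells the polymerase signal fell steeply after the poly(A) site of most of these genes. The mean RTI over the WT libraries was under 0.01, fewer than 1 read downstream per 100 upstream, for 28 of the 39. The median RTI of the 39 genes was 0.00841, 0.00220 and 0.00267 in WT replicates 1, 2 and 3, against 0.0142, 0.00349 and 0.00459 over all genes measured in these libraries. In sua7-1 replicates 2, 3 and 4 the median was 0.0174, 0.0485 and 0.0326, against 0.0414, 0.0850 and 0.0680 over all genes. Every mutant median thus lay above every WT median of these 3 libraries, and in each of the 6 libraries the median of the 39 genes lay below that of all genes. WT replicate 4 lists an RTI for 38 genes only, among them RPL17A and RPL43B, so the other 37 genes rest on 3 libraries of each strain. The methods name 3 biological replicates per strain without saying which of the 4 WT libraries these are. The read numbers behind the ratios are unknown, so no counting error can be given.

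The libraries of a strain were shifted against each other in the same way for nearly all of the genes. Of the mutant libraries, replicate 3 had the highest RTI for 35 of 39 genes, and of the WT libraries replicate 1 had the highest for 36 of 39. Over the whole table these shares were 80.1% of 302 genes and 83.5% of 321 genes. Replicate 2 was the lowest mutant library for 35 of the 39. The order of the genes was similar in every library, with a Spearman correlation across the 39 genes of 0.964 to 0.988 between mutant libraries, 0.856 to 0.943 between WT replicates 1 to 3 and 0.824 to 0.879 between strains. The genes share these libraries and are not independent replicates.

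Of the 39 genes, 28 (71.8%) rose in the mutant, none fell and 11 were called neither way, while over all 337 genes 75.1% rose and 0.890% fell. Once every library was divided by its own median RTI, a step that keeps only changes relative to other genes and moves the median of all genes from 2.44 to -0.20 (log2 fold change), 2 of the 39 rose and 4 fell, against 6.53% and 15.4% of all genes. The test was limma on log2(RTI + 0.002) over all 337 genes, and a gene was called where it changed more than 2-fold with an adjusted p (Benjamini-Hochberg) under 0.05. At an unadjusted p under 0.05, 0 of the 39 fell. Because of the added 0.002, genes with an RTI near or under it changed by more than their fold change shows. The median log2 fold change was 2.22 over the 39 genes and 2.44 over all genes. Of the genes that rose, 10 reached 8-fold or more on this scale, 12 lay between 4-fold and 8-fold, and 6 stayed below 4-fold. Those at 8-fold or more made up 25.6% of the 39 genes, against 31.2% of all genes. The lowest mutant library lay above the highest WT library for 30 of the 39 genes (76.9%), where 78.3% of all genes were so separated, and for none did every mutant library lie below (2.67% of all genes). The shares that rose and that were separated upward thus lay close to those of the whole table.

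**Figure D1:**
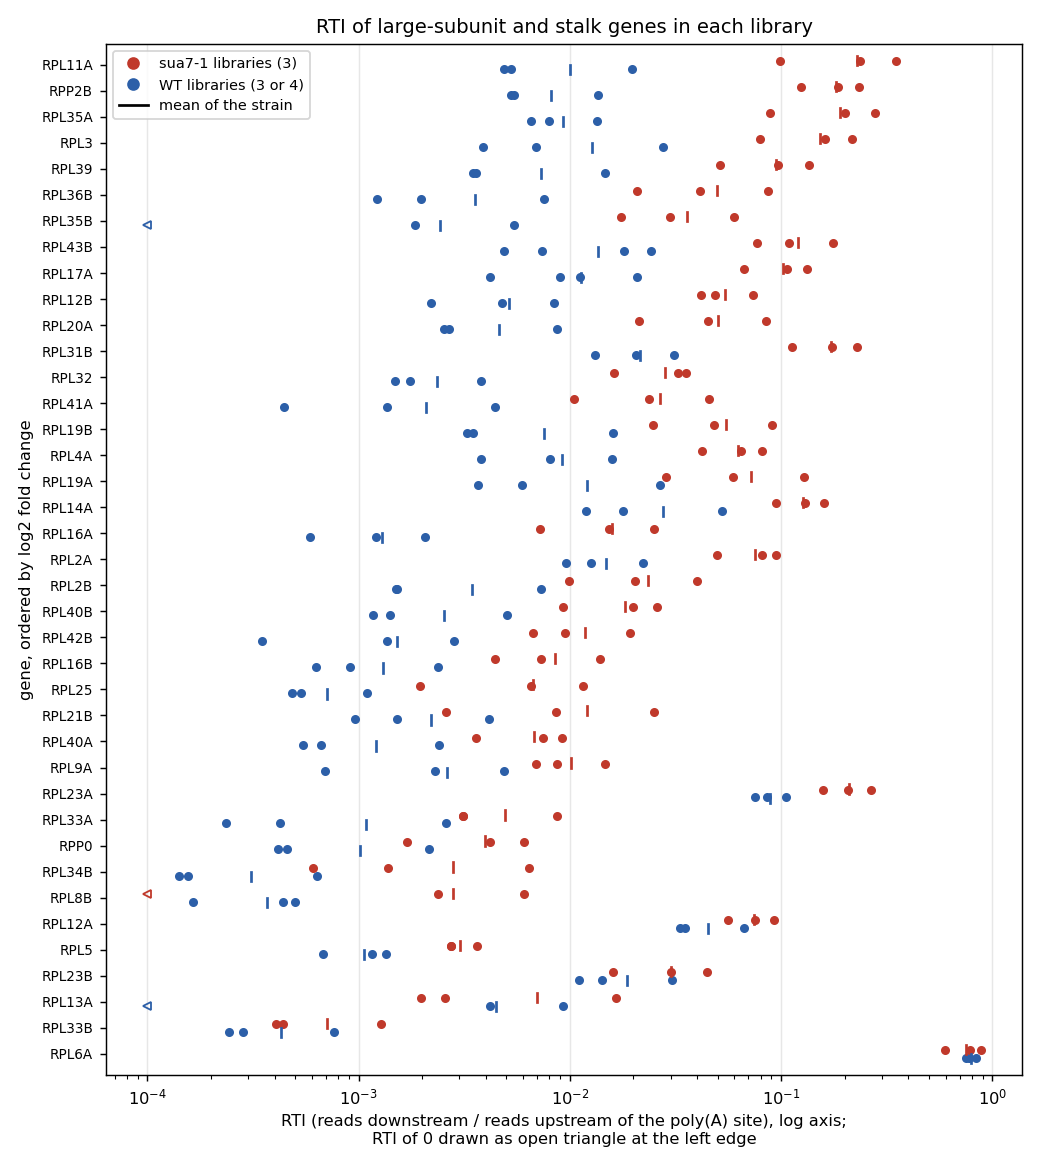
RTI (log axis) of each of the 39 genes in each library, sua7-1 in red and WT in blue, with short vertical lines at the mean of the strain and open triangles for an RTI of 0. The genes are ordered by log2 fold change, from RPL6A (-0.09) at the bottom to RPL11A (4.30) at the top, and 28 rose as deposited, while 2 rose and 4 fell after division by the library medians.

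The ribosomal stalk recruits the translation factors that use GTP to drive elongation. RPP2B, which encodes 1 of the acidic P proteins that form the arms of the stalk, reached 0.124, 0.234 and 0.185 in mutant replicates 2, 3 and 4, compared with 0.0136, 0.00524 and 0.00545 in WT replicates 1, 2 and 3 (RTI). The lowest mutant library was thus far above the highest WT library. Its log2 fold change was 4.23 (SE, the standard error of the fit, 0.53, limma adjusted p = 0.00018), and it was 1 of the 2 genes that also rose after division by the library medians (log2 fold change 1.20, adjusted p = 0.028). RPP2B has no repeated word in its upstream window, and its coding sequence is 73.6% identical to that of RPP2A, the lowest identity among the pairs. RPP0, the single-copy gene of the protein that anchors the arms to the ribosome, had much lower values in both strains. They were 0.00169, 0.00605 and 0.00420 in mutant cells, compared with 0.00216, 0.000417 and 0.000457 in WT, so that the strains overlapped. Its log2 fold change of 0.97 (SE 0.52, adjusted p = 0.11 from limma) passed the test without sua7-1 replicate 2 (1.28, adjusted p = 0.0499) or without WT replicate 1 (1.22, adjusted p = 0.046).

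RPL12A and RPL12B encode the same protein, which binds ribosomal RNA at the base of the stalk. RPL12A had an RTI of 0.0563, 0.0753 and 0.0924 in mutant cells, compared with 0.0670, 0.0332 and 0.0350 in WT replicates 1, 2 and 3. The strains overlapped, and the log2 fold change was 0.75 (SE 0.51, limma adjusted p = 0.19), but relative to the other genes, after division by the library medians, RPL12A fell (-2.51, adjusted p = 0.0048). RPL12B had 0.0416, 0.0485 and 0.0735 in mutant cells, compared with 0.00841, 0.00220 and 0.00478 in WT, and rose by 3.04 (SE 0.53, adjusted p = 0.00056). In the mutant libraries the RTI of RPL12A was 1.36, 1.55 and 1.26 times that of RPL12B, and in WT replicates 1, 2 and 3 it was 7.97, 15.1 and 7.33 times. The copies thus differed mainly in WT cells. Downstream of RPL12A the snoRNA gene SNR80 begins on the same strand 401 nt after the stop codon, while the next gene on the strand of RPL12B, RAD30, begins after 1061 nt.

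RPL5 and RPL11A encode proteins that enter the large subunit together with the 5S ribosomal RNA, and they stood near opposite ends of the list. RPL11A had an RTI of 0.0982, 0.352 and 0.237 in mutant cells, compared with 0.0198, 0.00529 and 0.00490 in WT, and rose by 4.30 on the log2 scale (SE 0.64, adjusted p = 0.00033 from limma), the largest change of the 39 genes. It was the other gene that rose after division by the library medians (1.27, adjusted p = 0.035). Its coding sequence is 97.0% identical to that of RPL11B, and the stretch that ends at its stop codon has the largest share of repeated words of the 39. RPL5 had 0.00273, 0.00362 and 0.00272 in mutant cells, compared with 0.00134, 0.000681 and 0.00115 in WT. The strains did not overlap, but at this level the log2 fold change was 0.72 (SE 0.47, limma adjusted p = 0.18), while the ratio of the mean RTI values was 2.85.

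RPL2A, RPL2B and RPL3 encode proteins near the peptidyl transferase centre, where peptide bonds are made. RPL3 had an RTI of 0.0796, 0.217 and 0.161 in mutant cells, compared with 0.0276, 0.00387 and 0.00693 in WT replicates 1, 2 and 3. It rose by 3.63 (SE 0.67, adjusted p = 0.00074 from limma), the largest change of the 6 single-copy genes. RPL2A had 0.0497, 0.0942 and 0.0809 in the mutant against 0.0223, 0.00961 and 0.0126 in WT. RPL2B was lower in every library, with 0.00986, 0.0400 and 0.0203 in mutant cells, compared with 0.00730, 0.00151 and 0.00152 in WT. The log2 fold changes of the copies were 2.22 and 2.20, and both rose.

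Several of the genes encode proteins around the tunnel through which the nascent protein leaves the ribosome. The exceptionally small protein of RPL39 lines the tunnel, and those of RPL25 and RPL35 form its rim. RPL39 had an RTI of 0.0515, 0.136 and 0.0965 in mutant cells, compared with 0.0147, 0.00349 and 0.00360 in WT, a log2 fold change of 3.49. RPL25 had 0.00195, 0.0116 and 0.00658 in mutant cells, compared with 0.00109, 0.000485 and 0.000537 in WT, levels about as low as those of RPP0 and RPL5, and rose by 1.52 (adjusted p = 0.026 from limma), a call lost without sua7-1 replicate 3 or 4 or WT replicate 2 or 3. RPL35A had 0.0887, 0.279 and 0.202 in mutant cells, compared with 0.0134, 0.00799 and 0.00653 in WT, a log2 fold change of 3.98 and the third largest of the 39. RPL35B, whose coding sequence differs from that of RPL35A by few bases, had 0.0174, 0.0601 and 0.0297 in mutant cells, compared with 0.00545, 0 and 0.00185 in WT, a log2 fold change of 3.13. RPL17A, whose protein also lines the tunnel, had values in all 7 libraries: 0.0665, 0.133 and 0.107 in mutant cells, compared with 0.0207, 0.00420, 0.00897 and 0.0112 in WT replicates 1 to 4. The lowest mutant value of RPL17A was above its highest WT value (log2 fold change 3.07, SE 0.53, adjusted p = 0.00043 from limma). RPL31B, another gene of the tunnel exit, had a mean RTI of 0.172 ± 0.0577 in mutant cells and of 0.0216 ± 0.00907 in WT (SD, n = 3 each). For RPL4A, whose protein reaches into the tunnel, the means were 0.0625 ± 0.0197 and 0.00920 ± 0.00607 (SD, n = 3 each), and both genes rose.

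Among the genes of proteins that face the small subunit, RPL19A, RPL19B, RPL23A and RPL41A rose and RPL23B did not pass the test. RPL19A and RPL19B, whose protein forms a bridge between the subunits, had log2 fold changes of 2.52 and 2.63. RPL19A had an RTI of 0.0285, 0.129 and 0.0589 in mutant cells, compared with 0.0267, 0.00366 and 0.00594 in WT, so that its lowest mutant and highest WT library lay close together. RPL19B had 0.0247, 0.0909 and 0.0481 in mutant cells, compared with 0.0160, 0.00349 and 0.00326 in WT. RPL23A and RPL23B encode a protein of the subunit interface. RPL23A had 0.157, 0.265 and 0.207 in mutant cells, compared with 0.105, 0.0862 and 0.0749 in WT, the second highest WT level of the 39 genes. It rose by 1.20 (SE 0.49, adjusted p = 0.039 from limma), a call lost without sua7-1 replicate 3 (1.02, adjusted p = 0.11) and without any 1 of sua7-1 replicate 4 and WT replicates 2 and 3, but fell relative to the other genes after division by the library medians (-2.10, adjusted p = 0.019). RPL23B had 0.0159, 0.0445 and 0.0301 in mutant cells, compared with 0.0305, 0.0142 and 0.0110 in WT, overlapping values with a log2 fold change of 0.66 (adjusted p = 0.30), and it too fell after division by the library medians (-2.47, adjusted p = 0.0048). RPL41A, the gene of a very short basic peptide that also sits between the subunits, rose by 2.73. Its coding sequence is 78 nt long, so a window that reaches 500 nt back from the 3' end extends beyond it. Of the 39 genes, 3 span under 450 nt from start to stop codon: RPL41A, RPP2B (333 nt) and RPL32 (393 nt).

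RPL40A and RPL40B encode a ribosomal protein made as a fusion with ubiquitin. RPL40A had an RTI of 0.00361, 0.00746 and 0.00916 in mutant cells, compared with 0.00240, 0.000545 and 0.000665 in WT, and RPL40B of 0.00928, 0.0258 and 0.0198 in mutant cells, compared with 0.00506, 0.00118 and 0.00141 in WT. Both copies rose, with log2 fold changes of 1.44 (adjusted p = 0.024 from limma) and 2.16 (adjusted p = 0.0046). RPL40B was the higher copy in all 6 libraries. The call of RPL40A, like that of RPL16B, was lost without sua7-1 replicate 3 or 4 or WT replicate 2 or 3. RPL32, a single-copy gene, had 0.0161, 0.0354 and 0.0326 in mutant cells, compared with 0.00381, 0.00148 and 0.00175 in WT, a log2 fold change of 2.76 (adjusted p = 0.00080).

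RPL16A and RPL16B both rose from low WT values. RPL16A had an RTI of 0.00722, 0.0249 and 0.0153 in mutant cells, compared with 0.00121, 0.00207 and 0.000591 in WT, and RPL16B of 0.00444, 0.0138 and 0.00731 in mutant cells, compared with 0.00238, 0.000626 and 0.000912 in WT. Their log2 fold changes were 2.33 and 1.61, and only that of RPL16A kept its call without sua7-1 replicate 3 or 4 or WT replicate 2 or 3. RPL33A and RPL33B had some of the lowest values of all. RPL33A had 0.00311, 0.00865 and 0.00311 in mutant cells, compared with 0.00259, 0.000235 and 0.000426 in WT, with no overlap of the strains and a log2 fold change of 1.16 (adjusted p = 0.068 from limma). With a pseudocount of 0.0005 in place of 0.002 its log2 fold change was 1.94 (adjusted p = 0.035). RPL33B had 0.000439, 0.00128 and 0.000408 in mutant cells, compared with 0.000764, 0.000283 and 0.000243 in WT, overlapping values with a log2 fold change of 0.15 (adjusted p = 0.79). Both strains thus had very few reads downstream of RPL33B for those upstream.

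The remaining genes with small log2 fold changes were of different kinds. RPL6A had the highest RTI of the 39 in every one of its libraries, with 0.594, 0.881 and 0.781 in mutant cells, compared with 0.751, 0.838 and 0.776 in WT, so that the reads after its annotated 3' end nearly equalled those before it in both strains. Its log2 fold change was -0.09 (SE 0.47, limma adjusted p = 0.88), and relative to the other genes, after division by the library medians, it fell by 3.43 (adjusted p = 0.0064). The next annotated gene on its strand, FPR3, begins 1903 nt after the stop codon, and the nearest convergent gene ends 10883 nt away. RPL8B had an RTI of 0, 0.00605 and 0.00238 in mutant cells, compared with 0.000498, 0.000437 and 0.000165 in WT, and without sua7-1 replicate 2, the library listed at 0, it passed the test (log2 fold change 1.33, adjusted p = 0.041). RPL34B had 0.000607, 0.00641 and 0.00138 in mutant cells, compared with 0.000633, 0.000157 and 0.000141 in WT, with a log2 fold change of 0.87 (limma adjusted p = 0.17). The ratios of the mean RTI values, without the added 0.002, were 7.67 for RPL8B and 9.02 for RPL34B. In both genes the strains overlapped, and mutant replicate 3 was the highest library. RPL13A had 0.00256, 0.0165 and 0.00197 in mutant cells, compared with 0.00931, 0 and 0.00417 in WT. Its sign depended on single libraries, with a log2 fold change of 0.42 over all of them, -0.29 without sua7-1 replicate 3 and -0.27 without WT replicate 2. The other genes with large changes were RPL36B, with 0.0207, 0.0870 and 0.0412 in mutant cells, compared with 0.00753, 0.00196 and 0.00122 in WT, and RPL43B, with 0.0768, 0.177 and 0.108 in mutant cells, compared with 0.0242, 0.00488, 0.00735 and 0.0181 in WT replicates 1 to 4. Their log2 fold changes were 3.16 and 3.09. Of the genes not yet described, RPL9A, RPL14A, RPL20A and RPL42B rose by 1.44 to 2.91, and RPL21B had a log2 fold change of 1.46 with overlapping strains (adjusted p = 0.063 from limma).

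In 8 pairs both copies were measured and can be set side by side. Both copies rose in 5 pairs (RPL2, RPL16, RPL19, RPL35 and RPL40), 1 copy in 2 pairs (RPL12B and RPL23A), and neither in RPL33. Of these 16 genes 12 rose (75.0%), against 75.1% of all 337 genes. Whether copies rose together more often than unrelated genes was not tested. The A copy had the higher RTI in all 6 libraries of 5 pairs, and the B copy in all 6 libraries of RPL40. Whether the copies responded differently was asked of the within-library difference in log2(RTI + 0.002), A minus B, between strains. This difference was 0.45 ± 0.15 (SD, n = 3) in mutant cells, compared with 2.75 ± 0.31 (SD, n = 3) in WT for RPL12, a change of -2.30, the largest of the 8. For RPL33 it went from 0.27 ± 0.41 in WT to 1.28 ± 0.36 in the mutant, a change of 1.01, and for RPL40 from -0.45 ± 0.20 to -1.18 ± 0.33, a change of -0.72 (SD, n = 3 each). In these 3 pairs the difference did not overlap between the strains. A two-sided exact permutation test gave p = 0.1 for each, as low as it can go with 3 libraries a strain. Without the added 0.002, the RTI of RPL40A was 0.3888, 0.289 and 0.4626 times that of RPL40B in mutant replicates 2, 3 and 4. In WT replicates 1, 2 and 3 it was 0.4745, 0.4634 and 0.471 times. Mutant replicate 4 thus nearly met WT replicate 2, and with a pseudocount of 0.0005 the RPL40 change was -0.57. In the other 5 pairs the differences overlapped, with changes of 0.86 for RPL35, 0.72 for RPL16, 0.55 for RPL23, -0.12 for RPL19 and 0.02 for RPL2 (exact permutation test, two-sided, p = 0.3, 0.2, 0.2, 0.7 and 1). These 8 tests were not adjusted, and none can fall below 0.05 in this design. For RPL2, the RTI of the A copy was 5.04, 2.35 and 3.99 times that of the B copy in mutant cells, compared with 3.05, 6.38 and 8.30 times in WT replicates 1, 2 and 3, so that RPL2A was the higher copy throughout while the size of the gap varied among libraries of a strain.

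**Figure D2:**
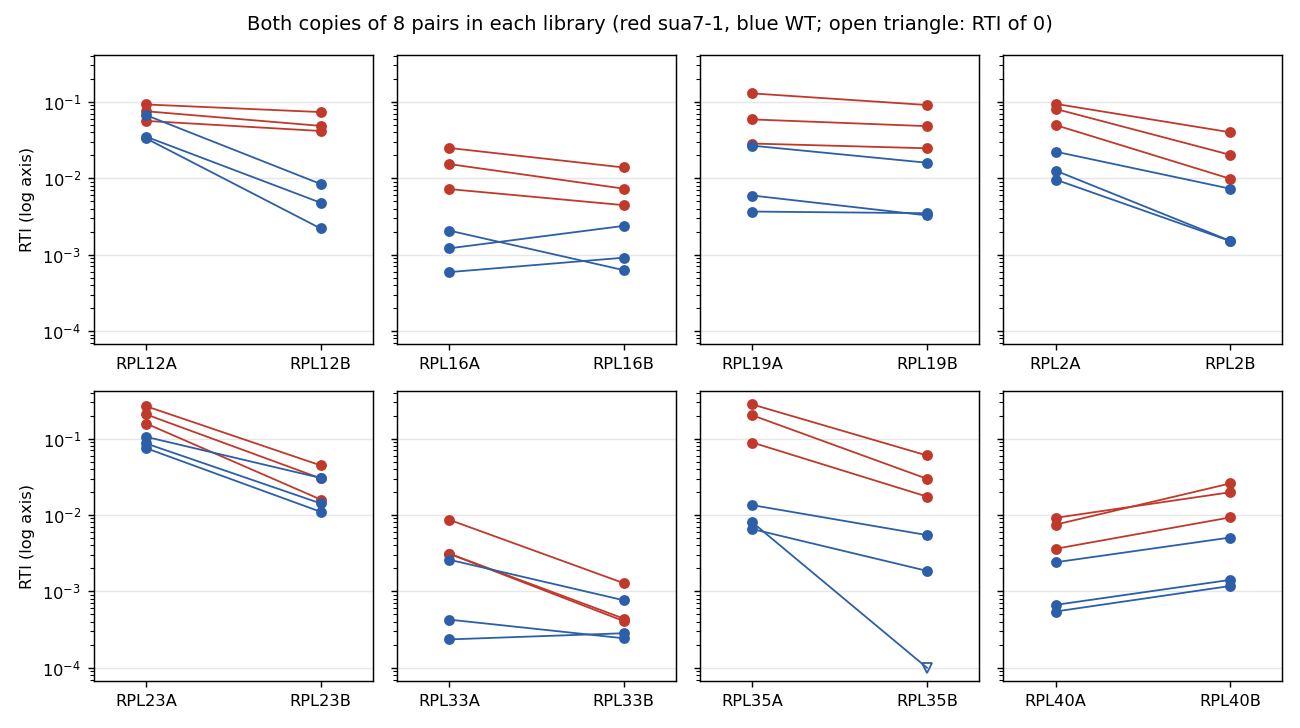
RTI (log axis) of the A and the B copy of 8 pairs, joined by a line within each library, with sua7-1 in red, WT in blue and an open triangle for an RTI of 0. The lines of RPL12 are nearly level in the mutant (A over B of 1.26 to 1.55) and steep in WT (7.33 to 15.1), while those of RPL2 run down in both strains.

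Single-copy genes and genes of pairs had medians close to each other, a difference that was not tested. Of the 6 single-copy genes 4 rose, with a median log2 fold change of 2.14, and of the 33 genes of pairs 24 rose, with a median of 2.22. The median RTI of the single-copy genes was lower, 0.00942, 0.0235 and 0.0196 in sua7-1 replicates 2, 3 and 4 against 0.0208, 0.0601 and 0.0412 for the genes of pairs, and 0.00299, 0.00108 and 0.00145 in WT replicates 1, 2 and 3 against 0.00868, 0.00229 and 0.00326. None of the 6 single-copy genes has a repeated word in the stretch that ends at its stop codon. Across the 39 genes the share of repeated words had a Spearman correlation of 0.14 with the log2 fold change and of 0.31 with the mean WT RTI, given as a description of genes that share all libraries. The 12 genes without a repeated word had a median log2 fold change of 1.97 and the 27 with 1 or more had 2.22. Such genes occurred at both ends of the list, as RPP2B and RPL33B show.

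**Figure D3:**
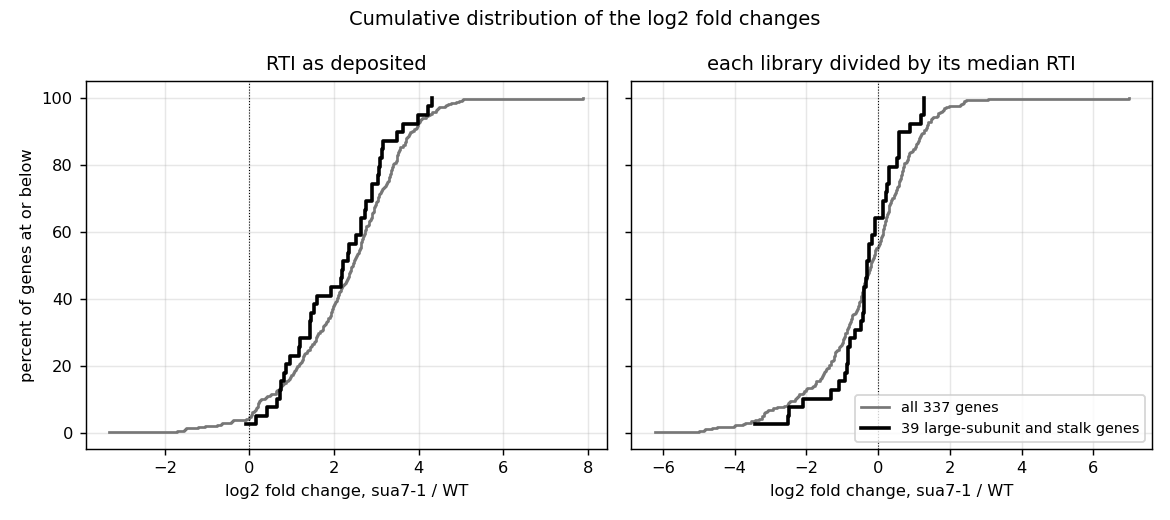
Cumulative percent of genes (vertical axis) at or below a log2 fold change of sua7-1 over WT (horizontal axis), for the 39 genes in black and all 337 in grey. In the RTI as deposited (left) the medians are 2.22 and 2.44, and after division by the library medians (right) they turn to -0.32 and -0.20, where 2 of the 39 genes rose and 4 fell.

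The genes share features of structure that the choice by name did not use. Of the 39, 27 have an intron (69.2%), against 17.2% of the 331 measured genes found in the annotation, and their median coding length is 483 nt against 999 nt. Of the 27 genes with an intron 20 rose, and of the 12 without 8 rose, where 75.1% of all 337 genes rose. The median log2 fold change was 2.20 over all 27 genes with an intron and 2.68 over all 12 without. A convergent gene ends within 500 nt of the stop codon in 26 of the 39 (66.7%), as in 66.5% of all, and 20 of these 26 rose against 8 of the other 13. On the same strand a gene begins within 500 nt of the stop codon in 6 of the 39, and in 28 of the 331 measured genes. The 6 include RPL4A (YBR032W after 265 nt), RPL5 (SPO19 after 373 nt) and RPL8B (RNP1 after 396 nt). The others are RPL2A (SMC2 after 401 nt), RPL12A (SNR80 after 401 nt) and RPL23A (TEL1 after 440 nt). Of these 6 genes RPL2A, RPL4A and RPL23A rose, the median log2 fold change was 1.01, and the median of the mean WT RTI was 0.0120. In the other 33 genes 25 rose (75.8%, near the 75.1% of all 337 genes), and these medians were 2.36 and 0.00357. In the 3 pairs in which 1 copy has such a neighbour (RPL2, RPL12 and RPL23), it was the A copy, and this copy had the higher RTI in all 6 libraries. The A copy was also the higher one in all 6 libraries for RPL19 and RPL35, where neither copy has such a neighbour. The distances are counted from the stop codon in the R64 annotation, while the authors chose genes by the mRNA 3' end, and the part of transcripts of the neighbours in the downstream reads was not tested.

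**Figure D4:**
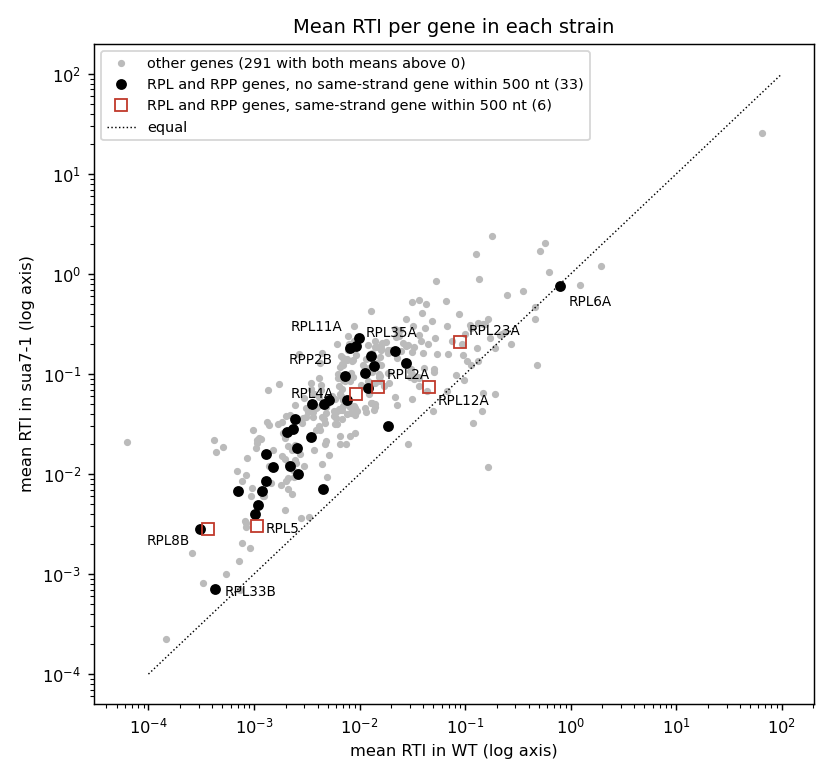
Mean RTI in sua7-1 (vertical) against WT (horizontal), both on log axes, with each point a gene; black circles and red squares are the 39 genes, grey points the others with both means above 0. RPL6A lies on the line of equal values (0.752 and 0.788), the squares mark the 6 genes whose stop codon has a same-strand gene within 500 nt, and the distance of a point from the line is its change as deposited, before any division of the libraries.

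The letters TATATA, an efficiency element of yeast poly(A) signals, were found on the coding strand within 250 nt after the stop codon of 22 of the 39 genes (56.4%). They were found in 59.5% of the measured genes and in 52.4% of the 6008 coding genes of the annotation. TATATA is its own reverse complement, so the same windows hold it on both strands. TACATA, a variant, was found in 8 of the 39, and 24 of the 39 had 1 or both. The first occurrence is shown in capitals within 30 bases of R64 for 2 of the genes with large changes and 3 with small ones, to set the signals of strongly and weakly changed genes side by side.
RPL11A (chrXVI:731174-731203, minus strand): atataatacattTATATActcatatctatg
RPL35A (chrIV:118519-118548, plus strand): tggaagttcaatTATATActatcattatct
RPL6A (chrXIII:123178-123207, minus strand): cttctataataaTATATAtgcaggtaaaat
RPL33B (chrXV:778466-778495, minus strand): aataagcattcaTATATAtatccttattct
RPP0 (chrXII:806846-806875, plus strand): aagttaatttcaTATATActattttataat
The first base of the motif lies 33, 14, 32, 72 and 33 nt after the stop codon in these genes, in the order shown. The log2 fold changes of these genes were 4.30, 3.98, -0.09, 0.15 and 0.97, in the same order. A link between the place of the motif and the change was not tested. Of the 22 genes with TATATA 13 rose (59.1%), with a median log2 fold change of 1.81. Of the 17 without it 15 rose (88.2%), with a median of 2.36, where 75.1% of all 337 genes rose. The genes with TATATA include RPL6A, with its high RTI in both strains, and RPL5, RPL8B, RPL33A, RPL33B and RPP0, with very low values. A link between the presence of TATATA and the change was not tested. AATAAA and AAAAAA, forms of the positioning element, were each found in 17 of the 39 windows (43.6%), against 43.8% and 51.4% of the measured genes. A match of letters is a description of the sequence and does not show that the site is used.

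The small-subunit genes and 4 genes of translation and assembly are given for comparison, with no test of a difference. Of 27 measured small-subunit (RPS) genes 20 rose and 1 fell, with a median log2 fold change of 2.40, which became -0.21 after division by the library medians. TEF1 and EFT1, which encode the elongation factors that work at the stalk, were the 2 measured of 6 such genes listed, and both rose. TEF1, near-identical to TEF2, had an RTI of 1.06, 3.76 and 2.33 in mutant cells, compared with 0.374, 0.0594 and 0.101 in WT, and EFT1, which encodes the same protein as EFT2, had 0.0958, 0.268 and 0.161 compared with 0.0339, 0.0147 and 0.0104. Of 22 genes listed for assembly of the large subunit 2 were measured. RRB1, the chaperone gene of the RPL3 protein, measured in 2 mutant libraries, and NOG1, which encodes an assembly GTPase, both rose, with log2 fold changes of 3.57 and 2.58. Of 9 genes that regulate ribosomal protein genes, among them RAP1 and IFH1, none was measured.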

How the data were processed

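GRO-seq libraries of the sua7-1 mutant (3) and WT (4) were analysed. Reads had their adapters removed by the authors (cutadapt) and were mapped to S288C (R64-3-1 in the methods, R64 in the submitters' processing notes). No aligner is named in these sources. What the authors deposited is a ratio, the RTI, for each gene in each library, beside columns of their own means, log2 ratios and p-values that were not used. Per the methods, mRNAs had at least 1 read per nt, their 3' ends lay at least 500 nt from the next gene on the strand, and at least 5 samples had an RTI, with 2 or more from either strain. A ratio keeps no read numbers, so the depth is unknown. Another block of the table, in which 166 rows repeat the main block exactly, was left out.

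All 337 genes entered 1 limma fit (limma 3.58.1, R 4.3.3) of log2(RTI + 0.002) on strain alone. The fit was also run on simulated data with independent noise in every gene and library. Those data held no shift common to a whole library, so they say nothing about calls under the library shifts seen here. Differences between copies within a library were compared by exact permutation (Python 3.11.15, scipy 1.17.1, numpy 2.4.6). Names, positions and sequences came from RefSeq's R64 genome (Biopython 1.88), whose annotation is a later release than that of the methods, and 331 genes matched. The 39 genes and all lists were chosen with earlier results of these data known. By rule, values in every library were given for stalk genes, single-copy genes, both copies of each full pair, and the 4 largest and 4 smallest changes among the rest. The alternatives tried were pseudocounts of 0.0005 and 0.01, zeros as missing, filters on low values and on the number of libraries, limma's trend and robust options, division of every library by its median RTI (rescaled to the mean of the medians), blocking by replicate number, and leave-one-out fits.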

Additional observations from a re-analysis of the deposited data

How the results depend on the processing

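Leaving out each library in turn, 23 to 31 of the 39 genes rose and none fell, while 213 to 277 of all 337 genes rose. Of the 28 genes, 23 rose in every such fit. The other 5, RPL9A, RPL16B, RPL23A, RPL25 and RPL40A, were lost without sua7-1 replicate 3 or 4 or WT replicate 2 or 3. In the 14 alternatives other than the division by library medians, 22 of the 28 genes rose wherever they were tested. With a pseudocount of 0.01 the median log2 fold change of the 39 genes was 1.24, and 23 of them rose. Over all 337 genes 233 rose, and 5 fell in place of 3. By the exact permutation test of each gene's RTI, unadjusted, 2 of the 39 differed (RPL17A and RPL43B), the only genes with 3 against 4 values; 3 against 3 cannot go below p = 0.1. Without the 6 genes with a close same-strand gene and RPL6A, a setting added once the values had been seen, 25 of 32 rose.

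After division of every library by its median RTI, 2 of the 39 rose and 4 fell, with 22 and 52 of all genes, and the medians became -0.32 and -0.20. The median of WT replicate 4 rests on its 38 genes. Log2 fold changes that turned sign were -2.51 for RPL12A, -2.47 for RPL23B, -2.10 for RPL23A, -1.30 for RPL13A, -1.08 for RPL5, -0.94 for RPL2A, -0.88 for RPL9A, -0.85 for RPL14A, -0.83 for RPL21B, -0.79 for RPL33B, -0.64 for RPP0, -0.47 for RPL19A, -0.42 for RPL40A, -0.39 for RPL16B and RPL8B, -0.38 for RPL4A, -0.34 for RPL33A, -0.32 for RPL2B and RPL31B, -0.26 for RPL19B, -0.25 for RPL40B, -0.18 for RPL25, -0.10 for RPL34B and -0.07 for RPL42B. RPL13A had -0.27 with zeros as missing and -0.29 to 0.98 with libraries left out, and RPL6A -0.21 to 0.075, with the highest value without sua7-1 replicate 2; the cause was not tested. The pair difference of RPL19 became 0.024 with a pseudocount of 0.01 and ranged from -0.31 to 0.0029 with libraries left out, and that of RPL2 became -0.37 with a pseudocount of 0.0005 and ranged from -0.18 to 0.29.

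With the replicate number as a block 29 of the 39 rose, and 261 of all 337 genes. This fit used replicates 2 to 4 of each strain, so WT replicate 1 was left out. Only RPL17A and RPL43B of the 39 have a WT value under number 4. Across genes, the deviations of same-numbered libraries had correlations of 0.13, -0.02 and -0.03 for numbers 2, 3 and 4. Of the 3 numbers, 1 correlated best with its own number, and number 4 rests on 38 genes. Such correlations cannot show a shift common to a whole library, so whether same-numbered libraries were handled together is unknown. With words of 50 nt, words of 75 nt or a window ending 100 nt after the stop codon, 4, 3 and 3 genes had over 50% of their words repeated. Without read numbers, small ratios cannot be set against their counting error.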
